A study of Mus musculus with 6 samples.

Results

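The anoctamins are a family of membrane proteins with 10 genes in the mouse, Ano1 to Ano10, and all 10 were taken by name from a table of reads counted per gene in dorsal root ganglia (DRGs). The table holds 47937 genes and loci, of which 20006 had enough reads to be tested, and 9 of the 10 anoctamins were among them. Tlx3 is a homeodomain transcription factor of sensory neurons, and RNA of whole DRGs from cervical to lumbar levels was sequenced in 3 control mice and 3 mice that lack it in nociceptors, to learn which transcripts depend on it. All mice were of the C57BL/6 strain and about 2 months old. The Tlx3cko mice were Tlx3f/f;SNS-cre, that is, they carried loxP-flanked Tlx3 alleles and a Cre recombinase driven by the promoter of the sodium channel Nav1.8, also called SNS. The deletion was therefore limited to cells that use this promoter, mostly nociceptive neurons, while the RNA came from the whole ganglion. The labels give the controls as wild type, and the study calls them controls; in its behavioural tests these are Tlx3F/F littermates, so the genotype of the sequenced controls is uncertain.

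Anoctamins (also named TMEM16 proteins) work as dimers with many membrane-spanning helices, and calcium activates most of those studied. Some are chloride channels, others are scramblases that move phospholipids between the leaflets of a membrane, and a few act inside the cell at contacts of the endoplasmic reticulum. In nociceptors a chloride current is excitatory, because these neurons keep a high internal chloride concentration, and ANO1 is known there as a heat-activated and calcium-activated channel.

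The control libraries held 13761480, 15006871 and 18775628 counts for replicates 1, 2 and 3, and the Tlx3cko libraries held 15535247, 11458299 and 15303922. Normalized counts are counts scaled by TMM, a correction for library size and composition, so that an effective library holds 14970767 counts, the mean of the 6. A gene was called lower or higher in Tlx3cko DRGs when its adjusted p was under 0.05 in edgeR's quasi-likelihood fit, by the Benjamini-Hochberg method over the 20006 genes tested. These p-values measure the spread between the 6 samples, and an exact two-sided permutation test of 3 samples against 3 cannot give a p under 0.1. Xist, which is made from the inactive X chromosome, was counted 591 and 493 times in control replicates 1 and 2 and at most 2 times in the other 4 libraries. Ddx3y, on the Y chromosome, had 0 counts in control replicates 1 and 2, 525 in control replicate 3, and 352, 273 and 390 in the Tlx3cko libraries. Control replicates 1 and 2 were thus female and the other 4 libraries male, which leaves sex unbalanced between the groups. A fit with sex as a covariate therefore sets control replicate 3 alone against the Tlx3cko libraries. Calls kept or lost in that fit rest on this single control library.

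Raw counts of the targeted gene Tlx3 were 1828, 2262 and 2433 in control against 1717, 1052 and 1475 in Tlx3cko libraries. It kept 72.7% of its control level, at 2057 ± 173 normalized counts in control against 1495 ± 141 in Tlx3cko DRGs (SD, n = 3 each). On the log2 scale Tlx3 fell by 0.46 (standard error 0.09), with an adjusted p of 0.0122 in edgeR and no overlap of the groups. This call was lost under 4 of 15 alternative fits. Leaving out Tlx3cko replicate 2, Tlx3cko replicate 3 or control replicate 2 in turn gave adjusted p of 0.0910, 0.0706 and 0.0606 in edgeR. The lowest adjusted p was 3.25e-05, without a filter on low counts. The remaining loss was in the fit with the sex of the library as a covariate, at a log2 fold change of -0.376. That fit sets control replicate 3 alone against the Tlx3cko libraries, so it cannot decide whether the call holds. The part of Tlx3 that the deletion removes is not given in the sources used here, so reads on the rest of the gene are included.

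The tissue was checked against marker genes. Calls in the marker lists, here and below, stand beside 2.56% lower and 1.69% higher among all 20006 genes tested in edgeR. All 8 genes of the list for sensory neurons in general were detected, led by Tubb3, and 0 of them were called in edgeR (1 had an unadjusted p under 0.05 in each direction, and DESeq2 and limma-voom also called 0). Of the nociceptor list with Nav1.8, 1 of 4 genes was lower (Scn11a) and 2 were higher (Calca and the Nav1.8 gene Scn10a). In the list named for MrgprD, which also holds Mrgprb4 and Mrgprb5, 6 of 6 genes were lower. Markers of the class named for Nppb were lower in 6 of 7 genes, those of the TH-positive low-threshold mechanoreceptors in 4 of 4, and those of MrgprA3 neurons in 2 of 5. The study's own table of itch genes, drawn from the same libraries, holds 2 of the MrgprD, 3 of the MrgprA3 and 6 of the Nppb markers, so their direction is not independent evidence. The peptidergic and the myelinated lists had 2 of 5 and 3 of 8 genes higher and 0 lower. The peptidergic calls were Trpv1 and Calca, which is also in the nociceptor list. Tac1 (log2 fold change 0.55), Calcb (-0.12) and Adcyap1 (-0.15) were not called. The study reports the rise of Trpv1 from the same libraries. It also reports TRPV1 and CGRP (Calca) expanding into non-peptidergic neurons of Tlx3cko mice, so these calls do not mark peptidergic neurons alone. Each of the 3 myelinated calls was lost somewhere. Nefh and Nefm were lost only with the sex covariate, a fit in which control replicate 3 alone stands for the controls. Pvalb was lost without control replicate 2 or 3. Of the non-neuronal lists, satellite glia, Schwann cells, immune cells and blood had 0 genes called in edgeR, against 1, 2, 0 and 0 in DESeq2 and 0, 1, 0 and 0 in limma-voom. At an unadjusted p under 0.05, satellite glia had 0 genes lower and 2 higher, Schwann cells 1 and 1, and immune cells and blood 1 and 0 each. Of the spinal cord list 2 of 6 genes could be tested, the motor neuron gene Mnx1 had 0 counts in all 6 libraries, and 1 gene was lower (Pax2, with 34 counts or fewer per library), a call lost under 3 of 15 alternatives including the sex covariate (adjusted p from 0.000453 to 0.205).

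Of the 9 anoctamins tested, 1 was lower in Tlx3cko DRGs (Ano3) and 0 were higher, beside 2.56% lower and 1.69% higher among all 20006 genes tested (4.25% in either direction) in edgeR. At an unadjusted p under 0.05 there were 2 lower (Ano3 and Ano6) and 0 higher, and DESeq2 and limma-voom also called 0 higher. The median log2 fold change of the 9 was -0.09, with 5 below 0 and 4 above 0, and the median of all genes tested was -0.00. Normalized counts did not overlap between the groups for 3 of the 9 (Ano2, Ano3 and Ano6), beside 19.7% of all genes tested. The values that follow describe single genes, since 1 call among 9 says little of a family.

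Levels of different anoctamins were compared as normalized counts per kilobase of merged exon. In control DRGs the highest level was that of Ano3, at 402 ± 71.9 per kilobase (SD, n = 3), followed by Ano8 at 269.9 ± 17.6, Ano6 at 136 ± 11.0 and Ano10 at 108 ± 15.9. Ano4 came next at 83.7 ± 3.41, then Ano1 at 29.7 ± 3.87. Each of these 6 genes stood above the next one in the order without overlap of the 3 control values. A wide gap followed, since Ano5, Ano7, Ano2 and Ano9 had 1.56, 1.31, 0.749 and 0.0816 normalized counts per kilobase in control, and Ano1 stood 19.0 times above Ano5. The order among Ano5, Ano7 and Ano2 was not resolved, because the values of neighbours overlapped.

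In Tlx3cko DRGs the order at the top was different. Ano8 led with 271 ± 15.3 normalized counts per kilobase, and Ano3 had 256 ± 4.27 (SD, n = 3), with overlap between both genes. Ano6 at 115 ± 5.90 stayed above Ano10 at 101 ± 8.69, whose values overlapped those of Ano4 at 85.5 ± 6.68, and Ano1 followed at 34.6 ± 8.35. The ratio of Ano3 to Ano8 per kilobase was 1.43, 1.23 and 1.84 in the control libraries against 0.927, 0.995 and 0.916 in the Tlx3cko libraries. By merged exon length every control library had more Ano3 than Ano8, and every Tlx3cko library had less. The ranking rests on the length used: per kilobase of the longest transcript, Ano3 was again first in control by its mean, but control replicate 2 had less Ano3 than Ano8 (384 against 403), the values of Ano8 overlapped those of Ano6, and in Tlx3cko DRGs Ano3 came after both Ano8 and Ano6 by its mean, with values that overlapped those of Ano6.

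**Figure D1:**
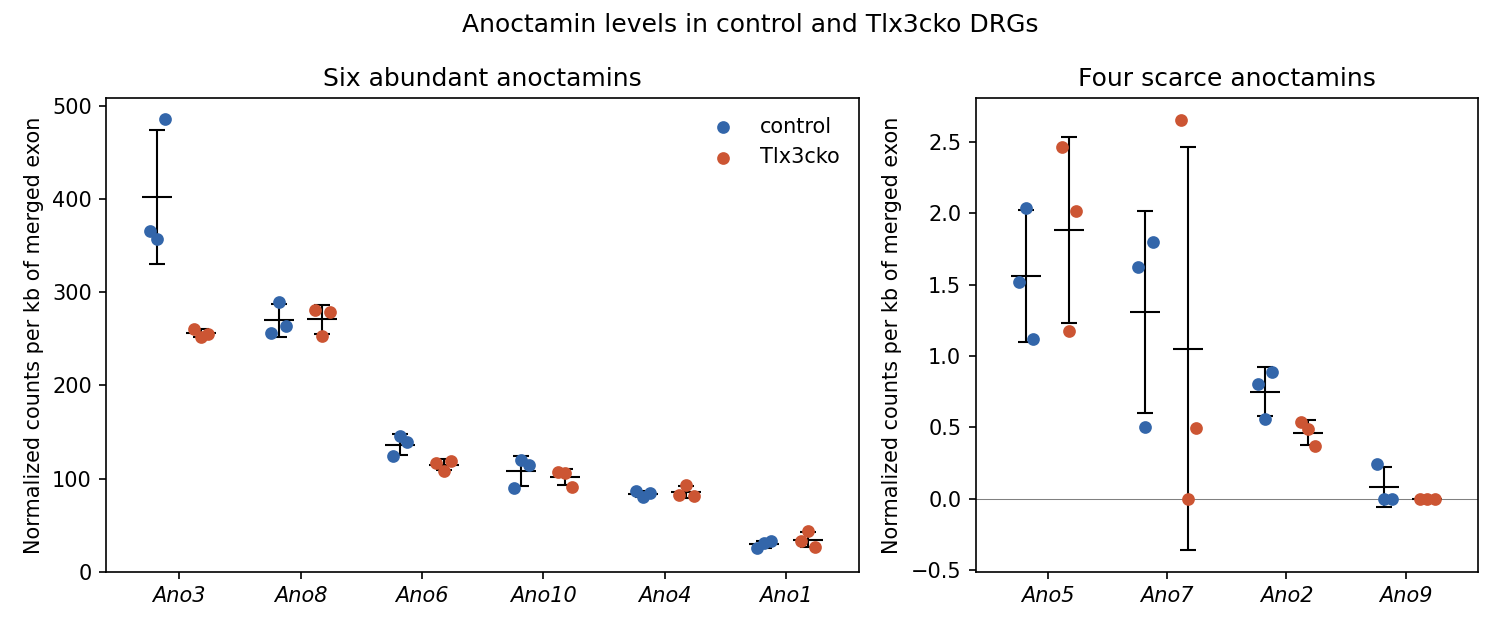
Normalized counts per kilobase of merged exon for the 10 anoctamins in 3 control (blue) and 3 Tlx3cko (red) DRG libraries, with each library as a point and the mean and SD as bars. The 6 abundant genes are on the left and the 4 scarce ones on the right, on a smaller scale. The Ano3 points of Tlx3cko DRGs lie below those of control DRGs, and the Ano8 points of both groups overlap.

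All anoctamin reads together made up 489, 524 and 570 CPM (counts scaled to a fixed library total) in the control libraries against 449, 430 and 434 in the Tlx3cko libraries. The family total was lower in each Tlx3cko library than in each control library, at 527.7 ± 40.7 against 437.5 ± 9.81 CPM (SD, n = 3 each; p = 0.1 by an exact two-sided permutation of the samples, the lowest it can reach). Ano3 held 36.3%, 32.8% and 41.0% of the anoctamin reads in the control libraries against 28.0%, 28.1% and 28.2% in the Tlx3cko libraries. Its share was nearly the same in the 3 Tlx3cko libraries and varied among the controls, without overlap. The other 9 members summed to 4977 ± 328 normalized counts in control against 4723 ± 93.8 in Tlx3cko DRGs (SD, n = 3 each; exact two-sided permutation test, p = 0.4), and these sums overlapped.

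The chloride channels of the family are ANO1 and ANO2. ANO1 carries the calcium-activated chloride current of secretory epithelia and smooth muscle, and in nociceptors it is gated by heat and by calcium released after stimulation of bradykinin receptors. Ano1 (ENSMUSG00000031075, minus strand of chromosome 7, 144588549 to 144751974) had raw counts of 147, 192 and 258 in the control libraries against 216, 207 and 171 in the Tlx3cko libraries. The groups overlapped, at 185 ± 24.2 normalized counts in control against 216 ± 52.1 in Tlx3cko DRGs (SD, n = 3 each), and the highest value was that of Tlx3cko replicate 2. The log2 fold change of Ano1 was 0.21 (standard error 0.19, 95% interval -0.19 to 0.62, adjusted p = 0.702 in edgeR). The interval reaches from 87.4% to 153% of the control level, so a moderate rise of Ano1 was not detectable with 3 libraries per group and this spread. The vascular marker list, which includes smooth muscle genes, summed to 1021, 834 and 901 normalized counts in the control libraries against 1243, 1169 and 1151 in the Tlx3cko libraries. In that list 1 of 5 genes was higher (Pecam1), a call lost under 4 of 15 alternatives with the sex covariate among them (adjusted p from 0.00187 to 0.0991), Tagln was the most abundant, and the part of vascular RNA in the Ano1 values was not tested.

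ANO2 is the calcium-activated chloride channel of olfactory cilia and photoreceptor terminals. Ano2 (ENSMUSG00000038115, plus strand of chromosome 6, 125690419 to 126040126) was close to the limit of detection, with 4, 3 and 6 counts in the control libraries against 3, 2 and 2 in the Tlx3cko libraries. After normalization the values did not overlap, yet they rest on 13 counts in control and 7 in Tlx3cko DRGs. The pooled ratio of Tlx3cko to control was 0.605, with an exact 95% interval of 0.204 to 1.63 that covers counting error only. No difference in Ano2 was detectable at this depth (adjusted p = 0.817 in edgeR).

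ANO3, ANO4 and ANO6 have been described as lipid scramblases. ANO3 is made mainly by neurons, its human gene is mutated in an inherited dystonia, and in nociceptors it is known to raise the activity of the sodium-activated potassium channel Slack, the product of Kcnt1. Ano3 (ENSMUSG00000074968, minus strand of chromosome 2, 110655201 to 110950923) has 28 merged exons with 7218 bases. Its raw counts were 2442, 2582 and 4392 in the control libraries against 1953, 1386 and 1871 in the Tlx3cko libraries. In normalized counts the control libraries had 2636, 2575 and 3503, and the Tlx3cko libraries 1880, 1819 and 1841. The Tlx3cko values lay close together and below every control value, whereas control replicate 3 stood above the other controls. The mean of Ano3 was 2905 ± 519 normalized counts in control against 1847 ± 30.8 in Tlx3cko DRGs (SD, n = 3 each), which is 63.6% of the control level. The log2 fold change was -0.65 (standard error 0.11, 95% interval -0.89 to -0.42, adjusted p = 0.00321 in edgeR), which places the Tlx3cko level between 54.0% and 74.7% of control.

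Ano3 was called lower under all 15 alternative fits, with log2 fold changes from -0.92 to -0.50 and adjusted p from 3.35e-11 to 0.0257. Without control replicate 3 the log2 fold change was -0.50 (adjusted p = 0.00549 in edgeR). The fit with the sex of the library as a covariate gave -0.92. Both female libraries are controls, so that value compares control replicate 3 alone with the Tlx3cko libraries. It cannot separate the genotype from the level of that library. Control replicate 3, the only male control, had the most Ano3 of all 6 libraries, and the 3 male Tlx3cko libraries had the least. The fall was under 2-fold, so Ano3 was not counted when a 2-fold change was also required. Muc15 on the other strand covers 0.845% of the exonic bases of Ano3, and a search for near-identical stretches in transcripts of other genes (98% identity over 100 bases or more) had no hit.

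In bulk tissue, fewer cells of a type and less RNA per cell cannot be told apart, and this holds for the fall of Ano3. The 6 markers of the list named for MrgprD summed to 9030, 12016 and 13071 normalized counts in the control libraries against 4517, 4511 and 3940 in the Tlx3cko libraries, with P2rx3 as the most abundant. Their median log2 fold change was -1.86, that of the 7 markers of Nppb neurons was -3.50 and that of the 4 markers of TH-positive mechanoreceptors was -1.89, each further from 0 than the change of Ano3. The MrgprD list includes Mrgprb4 (-7.88) and Mrgprb5 (-3.90), and the study treats MrgprB4 neurons as a group apart from MrgprD neurons. The rest of that list was at -1.90 (Lpar3), -1.81 (Mrgprd), -1.30 (Gfra2) and -0.99 (P2rx3). The medians of the other classes were -0.20 for MrgprA3 neurons, 0.47 for the peptidergic list and 0.27 for the myelinated list. The MrgprA3 median hides a mixed list. Mrgpra3 was at -4.04 and Hrh1 at -3.01, against -0.20 for Gfra1, 0.41 for Mrgpra1 and 0.95 for Mrgprx1. The 8 markers of sensory neurons in general had a median of -0.04 and summed to 142334, 154568 and 146477 normalized counts in control against 155678, 144485 and 142211 in Tlx3cko libraries. The part of these cell classes in the Ano3 values was not tested.

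Among 13372 other genes that averaged 50 normalized counts or more, the pattern of Ano3 over the 6 libraries was most like those of Ptprg, Adk and Arsb. The root mean square distance of their mean-centred log2 values from those of Ano3 was 0.0428, 0.0512 and 0.0556. Ptprg, for a receptor-type tyrosine phosphatase, had 979, 894 and 1239 normalized counts in the control libraries against 654, 617 and 666 in the Tlx3cko libraries. As with Ano3, the highest value of Ptprg was that of control replicate 3 and the groups did not overlap. All 6 values share the same libraries, and no shared function or control follows from such a likeness.

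RefSeq gave 11 promoter windows for 8 of the 10 anoctamins, and those of Ano8 and Ano9 were not analysed here. The 250 bases before each start were searched for TAAT on both strands, read as TAAT or ATTA, since these letters form the core of sites bound by many homeodomain proteins, the class to which Tlx3 belongs. They occurred in 6 of the 11 windows, and in 54.9% of the 32851 windows of the same length in the RefSeq table. Of the 2 windows of Ano3, the one at chr2:110950245-110950494 had 1 match and lies within an exon that GENCODE annotates for the gene, so its bases are not shown. The other, at chr2:110840060-110840309, lies in an intron of Ano3, before a start that RefSeq lists inside the gene. It is shown because Ano3 is the member that fell, from build GRCm38.p6 and 5′ to 3′ on the minus strand, with the matches in capitals.
Ano3 intronic start: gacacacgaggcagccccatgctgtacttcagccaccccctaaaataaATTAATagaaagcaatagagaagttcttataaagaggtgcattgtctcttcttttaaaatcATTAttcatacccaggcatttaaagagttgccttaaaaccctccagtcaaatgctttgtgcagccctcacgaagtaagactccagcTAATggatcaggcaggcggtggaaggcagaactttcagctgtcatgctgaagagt
This window had 4 matches, of which 2 overlap in ATTAAT, and 9.62% of all windows had at least as many. Ano2 had 3, 1 and 1 matches in its windows, Ano6 had 1, and Ano1, Ano4, Ano5, Ano7 and Ano10 had 0. A match describes the letters of the window and is neither a binding site nor a cause.

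ANO4 is a neuronal scramblase that also passes cations. Ano4 (ENSMUSG00000035189, minus strand of chromosome 10, 88948994 to 89344762) had raw counts of 584, 583 and 768 in the control libraries against 619, 516 and 600 in the Tlx3cko libraries. The groups overlapped at 608 ± 24.7 and 621 ± 48.6 normalized counts (SD, n = 3 each). With a log2 fold change of 0.03 (95% interval -0.19 to 0.25, adjusted p = 0.942 in edgeR), the data bound any change of Ano4 to between 87.7% and 119% of control. The sign of this value turned without control replicate 2 and without Tlx3cko replicate 2, to -0.00 and -0.03.

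ANO6 is the scramblase that exposes phosphatidylserine on activated platelets, and its loss causes the bleeding disorder Scott syndrome. It is made by many cell types, fibroblasts among them. Ano6 (ENSMUSG00000064210, plus strand of chromosome 15, 95790843 to 95974751) had raw counts of 1413, 1792 and 2144 in the control libraries against 1492, 1012 and 1489 in the Tlx3cko libraries. In normalized counts the control libraries had 1525, 1787 and 1710, and the Tlx3cko libraries 1436, 1328 and 1465. All 3 Tlx3cko values lay below all 3 control values, although the gap between Tlx3cko replicate 3 and control replicate 1 was small. The means were 1674 ± 135 and 1410 ± 72.4 normalized counts (SD, n = 3 each). The log2 fold change of Ano6 was -0.25 (standard error 0.09, 95% interval -0.44 to -0.06) with an unadjusted p of 0.0137 and an adjusted p of 0.165 in edgeR, and it was not called under any of the 15 alternative fits (adjusted p from 0.0724 to 0.505).

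For Ano6, 2.74% of the exonic bases lie under A130051J06Rik and Gm49172 on the other strand. The search for near-identical stretches covered both strands and had hits of up to 214 bases in these same genes only, which may be this overlap. If the counting did not use strand, reads of these genes cannot be separated from those of Ano6. The 5 fibroblast markers, led by Dcn, summed to 4280, 4791 and 4489 normalized counts in the control libraries against 3510, 3312 and 3679 in the Tlx3cko libraries, and 3 of the 5 were lower (Col1a1, Dcn and Pdgfra). Each of these 3 calls was lost under 5 or more of the 15 alternative fits. The part of fibroblast RNA in the Ano6 values was not tested.

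ANO5 is best known from skeletal muscle, where it takes part in membrane repair, and mutations of the human gene cause a limb-girdle muscular dystrophy. Ano5 (ENSMUSG00000055489, plus strand of chromosome 7, 51511029 to 51598709) had raw counts of 11, 16 and 11 in the control libraries against 20, 7 and 16 in the Tlx3cko libraries. The groups overlapped, and the pooled ratio of Tlx3cko to control was 1.27, with an exact 95% interval of 0.803 to 2.02 for counting error. For Ano5 the fitted log2 fold change was 0.29 with a standard error of 0.52, and its adjusted p was 0.876 in edgeR. The 10 skeletal muscle markers, of which Atp2a1 had the most counts, summed to 3223, 804 and 253 normalized counts in the control libraries against 4066, 3236 and 2284 in the Tlx3cko libraries. Their median log2 fold change was 1.05 and 1 of the 10 was higher (Myh4), a call that was lost in DESeq2 and without control replicate 2, and none of the 10 was at 0 in all libraries. The part of muscle RNA in the Ano5 values was not tested.

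ANO7 and ANO9 are known from epithelia, ANO7 above all from the prostate. Ano7 (ENSMUSG00000034107, plus strand of chromosome 1, 93373930 to 93404303) had raw counts of 6, 2 and 9 in the control libraries against 11, 0 and 2 in the Tlx3cko libraries. Both groups spread widely and overlapped, and the pooled ratio of 0.860 had an exact 95% interval of 0.384 to 1.88 for counting error. A 0 in a library allows up to 3 counts. The adjusted p of Ano7 was 0.950 in edgeR, and the sign of its change depended on the library left out. Ano9 (ENSMUSG00000054662, minus strand of chromosome 7, 141101212 to 141117806) had 1 count, in control replicate 1, over all 6 libraries, and was not tested. Ano9 was therefore at or under the floor of 3 counts per library in both groups.

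ANO8 tethers the endoplasmic reticulum to the plasma membrane, where it promotes the assembly of calcium signalling complexes. Ano8 (ENSMUSG00000034863, minus strand of chromosome 8, 71476019 to 71485963) is the most compact of the 10 genes. Its raw counts were 1625, 1989 and 2264 in the control libraries against 1999, 1322 and 1938 in the Tlx3cko libraries. After normalization the groups overlapped, at 1848 ± 120 and 1855 ± 105 normalized counts (SD, n = 3 each). For Ano8 the log2 fold change was 0.01 (standard error 0.08, 95% interval -0.17 to 0.18, adjusted p = 0.984 in edgeR). The Tlx3cko level of Ano8 was thus bounded between 88.8% and 114% of control, and the sign of so small a value turned with the library left out and with scaling by library size alone. Dda1 on the other strand covers 1.17% of its exonic bases.

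ANO10 is an anoctamin of intracellular membranes, and loss of the human gene causes a recessive cerebellar ataxia. Ano10 (ENSMUSG00000037949, minus strand of chromosome 9, 122175874 to 122294423) had raw counts of 493, 710 and 849 in the control libraries against 657, 477 and 549 in the Tlx3cko libraries. The groups overlapped, at 639 ± 94.0 normalized counts in control against 599.5 ± 51.4 in Tlx3cko DRGs (SD, n = 3 each), and control replicate 1 was the lowest of the 6 libraries. For Ano10 the log2 fold change was -0.09 (standard error 0.12, 95% interval -0.36 to 0.17, adjusted p = 0.820 in edgeR). A stretch of 155 bases of Ano10 is near-identical to Gm42910, so reads from that stretch could have been assigned to either gene.

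**Figure D2:**
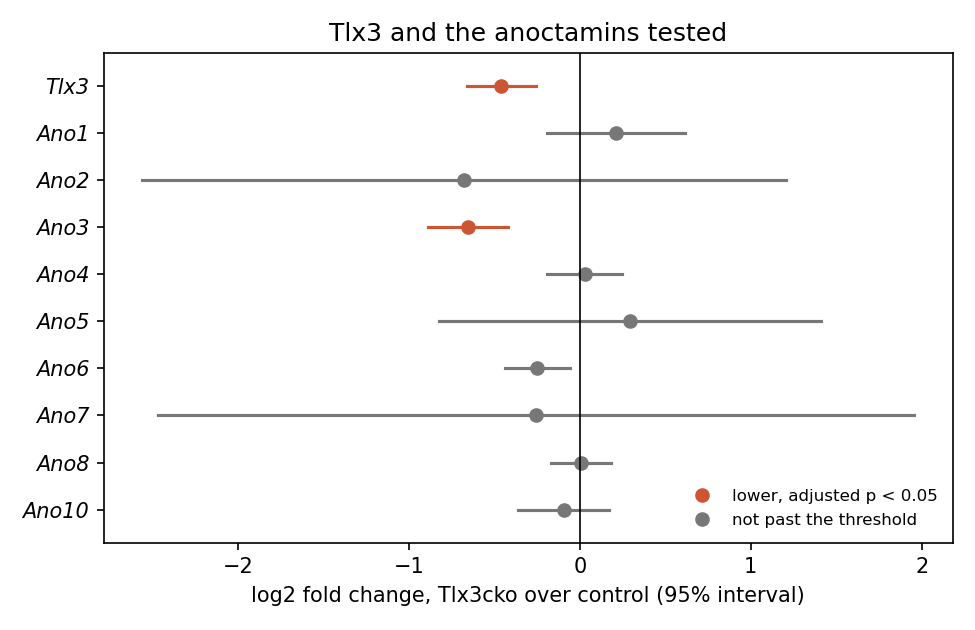
Log2 fold changes of Tlx3 and of the 9 anoctamins tested, Tlx3cko over control DRGs (3 libraries each), with 95% intervals from the edgeR fit as lines. Red marks the genes called lower at an adjusted p under 0.05, which are Tlx3 at -0.46 and Ano3 at -0.65. The intervals of Ano2, Ano5 and Ano7 are wide because few reads were counted on them.

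Genes that work with anoctamins were grouped in 5 lists of 97 genes, of which 89 were tested and 9 were called, 3 lower and 6 higher in Tlx3cko DRGs, beside 4.25% of all genes tested. A list with 1 call among 15 or 18 genes lies near that share and says little beyond the single gene. The chloride gradient on which ANO1 currents depend is set by cation-chloride cotransporters and the WNK kinases that regulate them. Of 15 such genes 0 were lower and 1 was higher in edgeR, with a median log2 fold change of 0.18 (2 lower and 4 higher at an unadjusted p under 0.05). The gene called was the kinase gene Wnk3 on the X chromosome, with 122, 81 and 113 counts in the control libraries against 150, 162 and 209 in the Tlx3cko libraries. The log2 fold change of 0.90 for Wnk3 (adjusted p = 0.0388 in edgeR) was not past the threshold under 6 of 15 alternatives, among them the sex covariate, with adjusted p from 0.000475 to 0.172 over the 15. Slc12a2, for the cotransporter NKCC that loads sensory neurons with chloride, averaged 1793 ± 328 normalized counts in control against 1678 ± 106 in Tlx3cko DRGs (SD, n = 3 each), with overlap and a log2 fold change of -0.09. Stk39, for a kinase that activates this cotransporter, was the most abundant of the list and was not called.

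Of 23 other chloride channel genes 18 were tested, 0 were lower and 1 was higher, with a median log2 fold change of 0.02. At an unadjusted p under 0.05 there were 4 lower and 4 higher, and DESeq2 and limma-voom called 2 and 1. The gene called was Clcn2, for a channel opened by hyperpolarization, with a log2 fold change of 0.43 (adjusted p = 0.0470 in edgeR), and this call was lost under 9 of 15 alternatives (adjusted p from 0.0230 to 0.169 over the 15). Clcn6, for an endosomal chloride transporter, was the most abundant. Of the 11 TMEM63 and TMC genes, families that share their fold with anoctamins, 0 were called in edgeR and 1 each in DESeq2 and limma-voom (2 lower and 0 higher at an unadjusted p under 0.05), with a median of -0.13 and Tmem63b, for a channel opened by osmotic stretch, as the most abundant. Of 25 genes for other scramblases and for flippases, which use ATP to bring lipids to the inner leaflet, 23 were tested and 0 were called in edgeR, DESeq2 or limma-voom (2 lower and 1 higher at an unadjusted p under 0.05). Their median was 0.10, and Atp9a, for an ATPase of endosomes from the flippase family, was the most abundant.

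The calcium sources and partners of Ano1 and Ano3 had the most calls, with 3 of 22 tested genes lower and 4 higher and a median log2 fold change of 0.07. Among all genes tested, 4.25% were called in either direction. The list was chosen with earlier results of these data known. It holds Plcb3 and Trpv1, which the study reports as changed, so its share of calls is not independent evidence. Upstream of calcium release, 2 of the 4 phospholipase C beta genes were called, in opposite directions, while Plcb2 (log2 fold change 0.14) and Plcb4 (0.31) were not. Plcb3, also in the study's table of itch genes, fell, with a log2 fold change of -0.68 (adjusted p = 0.000118 in edgeR), while Plcb1 rose by 1.16 on the same scale, from 364 ± 38.8 normalized counts in control to 816 ± 61.0 in Tlx3cko DRGs (SD, n = 3 each). Plcb3 had more counts than Plcb1 in every library, with 11812, 13679 and 15825 in control against 8913, 6323 and 7634 in Tlx3cko libraries. The counts of Plcb1 were 348, 321 and 495 in control against 781, 628 and 887 in Tlx3cko libraries. For the calcium store, the receptor gene Itpr1, whose product is known to sit beside ANO1 in nociceptors, had a log2 fold change of 0.16 (standard error 0.18) and was not called, and Itpr3 was higher by 0.37 with an adjusted p of 0.0462 in edgeR, a call lost under 7 of 15 alternatives (adjusted p from 0.00595 to 0.356). The bradykinin receptor gene Bdkrb2 had a log2 fold change of -0.31 (standard error 0.30).

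Of the calcium-permeable channels, Trpv1, for the capsaicin receptor whose calcium influx activates ANO1, was higher with a log2 fold change of 1.21, and Trpc6 was lower. A rise of Trpv1 is also reported by the study from the same libraries, so this call is not independent evidence. Normalized Trpv1 counts averaged 2237 in control and 5168 in Tlx3cko DRGs. The study's mean of reads is similar for control but clearly lower for Tlx3cko DRGs, and the reason was not tested. Trpc6 had 258, 291 and 387 counts in the control libraries against 135, 78 and 94 in the Tlx3cko libraries, without overlap. Trpc6 fell by 1.43 on the log2 scale, with a standard error of 0.16 and an adjusted p of 0.000184 in edgeR. Kcnt1, for the Slack channel that ANO3 modulates, had 3412, 3022 and 4473 counts in the control libraries against 2889, 1969 and 2490 in the Tlx3cko libraries. Kcnt1 was lower as Ano3 was, at a log2 fold change of -0.39 with an adjusted p of 0.0248 in edgeR, but its call was lost under 5 of 15 alternatives, the sex covariate and the fits without control replicate 1, control replicate 3, Tlx3cko replicate 2 or Tlx3cko replicate 3 (adjusted p from 0.000235 to 0.136). Its relative Kcnt2, for the Slick channel, had 173, 106 and 111 counts in control against 324, 189 and 327 in Tlx3cko libraries. Kcnt2 was higher at a log2 fold change of 1.23 with an adjusted p of 0.00920 in edgeR, a call lost without control replicate 2 (adjusted p = 0.0515; range over its alternatives 5.74e-10 to 0.0515). The calls of Plcb1, Plcb3, Trpc6 and Trpv1 held under all 15 alternative fits.

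**Figure D3:**
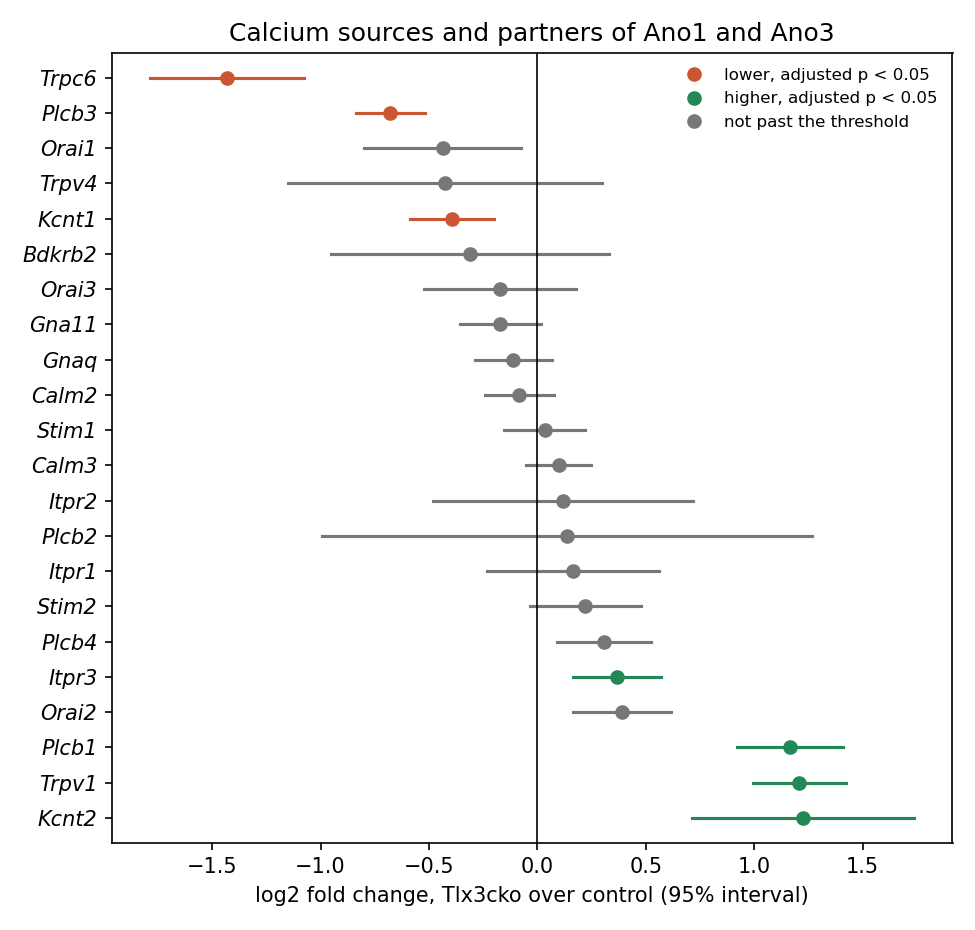
Log2 fold changes of the 22 tested calcium sources and partners of Ano1 and Ano3, Tlx3cko over control DRGs (3 libraries each), with 95% intervals from the edgeR fit as lines. Red marks 3 genes called lower, green 4 genes called higher at an adjusted p under 0.05, and grey the rest. Trpc6 is at -1.43 and Kcnt2 at 1.23, the outermost genes of the list.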

How the data were processed

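Total RNA of whole DRGs was sequenced as 150 bp paired-end reads from NEBNext Ultra libraries, and the values analysed were the counts of reads per gene that the authors deposited, without normalization. STAR 2.5.2a and the build mm10 are named in the submitters' processing notes; the counting program and the use of strand are not given in the sources used here. The libraries held 11458299 to 18775628 counts. Of 47937 rows, 47729 carried Ensembl identifiers, 47310 were matched to symbols of GENCODE M21 (GRCm38) and 208 were loci outside it. Samples were grouped by the genotype in the labels. The members and lists were chosen with earlier results of these data known.

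The software was edgeR 4.0.16, DESeq2 1.42.0 and limma 3.58.1 in R 4.3.3, and scipy 1.17.1 in Python 3.11.15. Genes whose counts over the 6 libraries summed to 10 or more were scaled by TMM (factors 0.994 to 1.01) and tested by edgeR's quasi-likelihood functions glmQLFit and glmQLFTest; calls were made at an adjusted p (Benjamini-Hochberg) under 0.05. Standard errors were obtained by dividing the log2 fold change by the root of F, and 95% intervals from the t distribution of the fit. The test was checked on simulated counts. Levels of different genes were divided by the length of merged exons. Exact intervals and the floor of 3 counts per library cover counting error only. Near-identical transcripts were sought by blastn 2.17.0+ (at least 100 bases, 98% identity). Replicate libraries differed by more than sampling noise (chi-square per degree of freedom 4.46 to 10.7) and were analysed separately.

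Named genes were Tlx3, Xist, Ddx3y, the anoctamins, up to 6 called genes and the most abundant gene by counts (for all lists but 1) of each of 5 lists of related genes and 16 marker lists (sensory neurons, Nav1.8 nociceptors, 6 neuron classes, satellite glia, Schwann cells, skeletal muscle, fibroblasts, vascular and immune cells, blood and spinal cord), and the 3 genes nearest in pattern to each called anoctamin (log2 of normalized counts plus 0.5). Slc12a2, Itpr1 and Bdkrb2 were named for their known link with ANO1, after their values were seen. Plcb2, Plcb4 and Mnx1 were also named outside these rules. Alternatives were DESeq2, limma-voom, other normalizations, filters and thresholds, the replicate number as a block, the sex of the library as a covariate, each library left out in turn, and the length of the longest transcript. After the results were known, 2 genes of the lists were taken out of them for a reason unrelated to their values and are not reported here, and all counts of list genes are without them.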

Additional observations from a re-analysis of the deposited data

How the results depend on the processing

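Over 283 results under alternatives, 228 kept their direction and side of the threshold (counts of genes within 1.5 times). Ano3 was lower under all 15 fits, at -0.92 to -0.50 on the log2 scale, and Ano3 kept rank 1 in control under both lengths. With a 2-fold change also required, 315 genes, 0 anoctamins and 4 related genes were called, and 418 genes and 5 related genes at an adjusted p under 0.01. Without the filter on low counts 1529 genes and 14 related genes were called. With the sex of the library as a covariate 487 genes and 5 related genes were called, and Tlx3 was at -0.376 (adjusted p = 0.223 from edgeR). That covariate leaves control replicate 3 as the only control library for the genotype. The counts and the adjusted p of that fit therefore cannot separate the genotype from the level of that library. With each library left out, 488 to 938 genes and 5 to 8 related genes were called, and Tlx3 ranged from -0.537 to -0.387. In these fits the log2 fold changes changed sign for Ano4 (-0.0264 to 0.0648), Ano7 (-2.14 to 0.263) and Ano8 (-0.0315 to 0.0613); that of Ano8 was -0.0013 with scaling by library size alone. The cause was not tested. Samples with the same replicate number did not deviate together (correlations across genes of -0.0674, -0.0136 and -0.0578), and with the replicate number as a block 770 genes and 1 anoctamin were called, with Ano3 at -0.64. Depth limits Ano2, Ano5, Ano7 and Ano9, which had 20, 81, 30 and 1 counts in total.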
